A study of Mus musculus with 9 samples.

Results

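Versican (Vcan) and 7 other genes that inflammatory monocytes are known for were followed in CD11b+ cells of the injured mouse liver. The 8 genes are Vcan, Fn1, Thbs1, F13a1, Hp, Cd177, Plac8 and Gda. They were taken by name, as a set chosen by their levels in these same samples, in which Vcan was already known to be among the genes lowest in the MSC-EV group relative to PBS. They are 8 of the 45777 genes in the tables, and all 8 were among the 13820 genes that reached 1 TPM (transcripts per 1000000 transcripts) in at least 3 of the 9 samples. All mice had received acetaminophen (APAP) into the peritoneal cavity, which injures hepatocytes, and no group without APAP was included. The PBS group (title APAP) received PBS only. The HEK-EV group (title APAP+HEKSIRP-EV) received SIRP-EVs, extracellular vesicles, derived from HEK cells (human embryonic kidney) into a vein 8 hours after APAP. The MSC-EV group (title APAP+SIRP-EV) received SIRP-EVs derived from MSC by the same route and at the same time. The labels do not spell out SIRP or MSC, and give no strain, sex, age, genotype, vesicle dose or day. CD11b+ cells were isolated 48 hours after APAP, and 3 samples per group were sequenced in bulk. The labels do not say that these came from separate mice, so p-values measure only the spread between these samples, which may be technical.

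Ly6C-high, or inflammatory, monocytes leave the bone marrow through CCR2 and enter the liver after injury, where they can become macrophages or, by way of the blood, Ly6C-low patrolling monocytes. Besides cytokines they make extracellular matrix proteins such as versican and fibronectin, the plasma-type transglutaminase factor XIII-A, and several granule and surface proteins that they share with neutrophils. Vcan, F13a1, Plac8, Fn1, Hp, Thbs1 and Gda are often listed among the genes of these monocytes, and Cd177 is best known from neutrophils. In bulk RNA, fewer cells of a type and less RNA per cell cannot be told apart.

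The promoter sequences of these genes are shown because the genes were low in the same 3 samples. The RefSeq promoter table (assembly GRCm38.p6) held 7 windows for 5 of the 8 genes, and Fn1, Hp and Thbs1 had no entry. Each line gives the 80 bases before a listed start on the minus strand, 5′ to 3′, in lower case with a TATAAA match in capitals. A listed start need not be the end of the gene coordinates given below. The Vcan stretch lies inside those of its gene, and the Cd177 and Plac8 stretches overlap theirs.
Vcan, chr13:89742513-89742592: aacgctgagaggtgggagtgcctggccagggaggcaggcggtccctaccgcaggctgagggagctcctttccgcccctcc
F13a1, chr13:37050245-37050324: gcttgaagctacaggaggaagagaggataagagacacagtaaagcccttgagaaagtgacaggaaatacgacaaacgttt
Cd177, chr7:24760312-24760391: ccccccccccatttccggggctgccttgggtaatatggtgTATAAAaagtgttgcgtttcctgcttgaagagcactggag
Plac8, chr5:100572206-100572285: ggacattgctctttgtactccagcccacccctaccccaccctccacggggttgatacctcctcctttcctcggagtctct
Gda, chr19:21472662-21472741: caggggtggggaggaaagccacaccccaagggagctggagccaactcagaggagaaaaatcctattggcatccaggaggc

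Over the 250 bases before the start, the GC content was 62.4% for Vcan, 42.8% and 54.4% for the F13a1 windows (the first is shown), 53.2% for Cd177 and 52.8% for both Plac8 windows, against a median of 52.4% over all windows of the table. That of Gda lay just below this median. A TATA box, searched as TATAAA on both strands, was found in 1 of the 7 windows, that of Cd177, and in 12.4% of all 32851 windows. The C/EBP motif, searched as TTGCNNAA or TTNNGCAA (each the reverse of the other on the opposite strand), was found in 2 of the 7 windows and in 9.56% of all windows. C/EBP factors are regulators of myeloid genes. The match in the Gda window lay 234 to 227 bases before the start, and that in a second Plac8 window 12 to 5 bases before the start the table gives, both in capitals here. The end of this Plac8 window did not match the start of a transcript, unlike the other 6, so that distance is uncertain.
Gda, chr19:21472868-21472911: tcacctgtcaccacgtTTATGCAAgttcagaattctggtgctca
Plac8, second window, chr5:100563097-100563128: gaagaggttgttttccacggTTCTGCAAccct
No window of the 5 genes held the PU.1 motif GAGGAAGT (2.44% of all windows), the AP-1 motif TGANTCA (6.75%) or the interferon response motif ISRE (2.98%), again on both strands. A match describes these letters only, and its absence says nothing of the factor.

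All 8 genes were lower in every MSC-EV sample than in any PBS sample, as were 14.9% of all genes tested, and this contrast was used to choose them. All but Thbs1 were lower in every MSC-EV sample than in any HEK-EV sample (17.5% of all genes tested). Vcan stood lowest relative to both control groups, with Plac8 next. The PBS and HEK-EV groups overlapped for each of the 8 genes. Values below are TPM, which are scaled per length and can be compared between genes, and differences are on the log2(TPM + 1) scale, with the standard error (SE) that limma gave over all 9 samples. For the difference from PBS no p of a single gene is given, since the genes were chosen with it known. Counts of its calls among the 8, also under the alternatives, are a description, and nothing is drawn from them. The MSC-EV samples were part of that choice, so the tests against HEK-EV are not independent of it either.

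**Figure D1:**
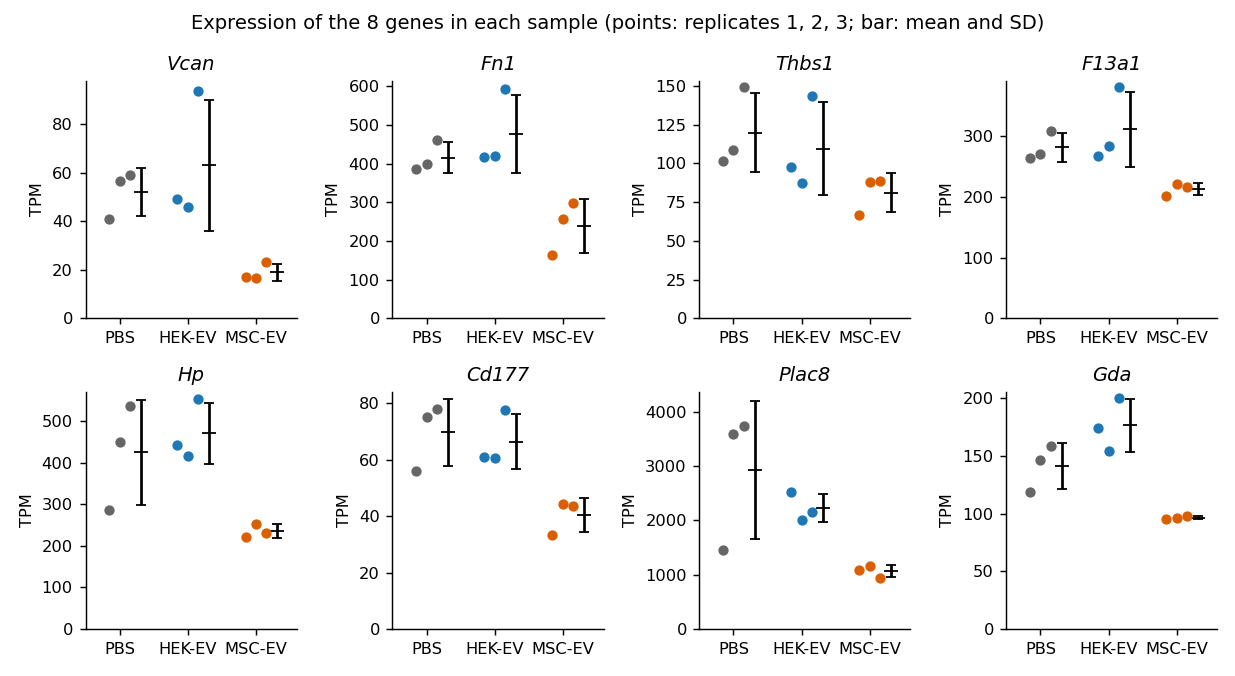
Expression in TPM (linear axis from 0) of the 8 genes in each of the 9 samples, with replicates 1 to 3 from left to right in each group and the mean ± SD (n = 3) beside them. Vcan lies between 16.6 and 23.1 TPM in the MSC-EV samples and at 40.8 TPM or more in the other 6.

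Vcan (gene ID 13003, mm10 chr13:89655309-89743027, minus strand) encodes versican, a large chondroitin sulfate proteoglycan that binds hyaluronan and CD44. It was at 40.8, 56.8 and 59.1 TPM in PBS replicates 1 to 3, at 49.2, 46.0 and 94.0 TPM in the HEK-EV samples and at 16.9, 16.6 and 23.1 TPM in the MSC-EV samples. The highest MSC-EV value lay below the lowest value of the other 6 samples, and HEK-EV replicate 3 stood above all others. The group means were 52.2 ± 9.96 TPM (SD, n = 3) in PBS, 63.1 ± 26.9 in HEK-EV and 18.9 ± 3.65 in MSC-EV. Against PBS the difference was -1.42 (SE 0.261), or 37.4% of the PBS level on that scale. Of all 13820 genes tested, 9 had a lower difference from PBS, and 6 had a lower difference from HEK-EV. Against HEK-EV Vcan fell (-1.63, SE 0.261, limma adjusted p = 0.0207). The predicted genes Gm16318 and Gm4117 overlap it on the opposite strand and reached at most 0.0459 and 0.107 TPM.

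Fibronectin (Fn1, gene ID 14268, chr1:71585473-71653280, minus strand), a matrix glycoprotein bound by integrins, was the second most abundant of the 8 in the vesicle groups. It was at 387, 399 and 462 TPM in PBS, 417, 419.7 and 593 in HEK-EV, and 163, 257 and 298.5 in MSC-EV. The MSC-EV samples were all below the other 6, but spread 1.84-fold from lowest to highest, the widest of the 8 genes in that group. The difference from PBS was -0.83 (SE 0.214), and Fn1 fell relative to HEK-EV (-1.01, SE 0.214, limma adjusted p = 0.0308).

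Thrombospondin 1 (Thbs1, gene ID 21825, chr2:118111876-118127133, plus strand) is a matricellular glycoprotein that binds CD36 and CD47 and can activate TGF-β. Its values were 101.5, 109 and 149 TPM in PBS, 97.8, 87.3 and 143.5 in HEK-EV, and 66.6, 88.0 and 88.8 in MSC-EV. It separated the groups least: MSC-EV replicates 2 and 3 lay above HEK-EV replicate 2. The difference from PBS was -0.55 (SE 0.204). That from HEK-EV did not pass the threshold (-0.41, SE 0.204, limma adjusted p = 0.269), and was -0.20 without HEK-EV replicate 3. With all samples the 95% confidence interval, -0.86 to 0.05, includes 0 but also falls down to -0.86.

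The A subunit of coagulation factor XIII (F13a1, gene ID 74145, chr13:36867178-37050244, minus strand) is the transglutaminase that cross-links fibrin. It was at 264, 271 and 309 TPM in PBS, 268, 283 and 382 in HEK-EV, and 201, 220.3 and 216 in MSC-EV. The step was small but the MSC-EV samples lay close together, below all others. The difference from PBS was -0.40 (SE 0.123), the least of the 8 genes, with 928 of the 13820 genes lower still. F13a1 fell relative to HEK-EV (-0.53, SE 0.123, limma adjusted p = 0.0403). The predicted genes Gm30489 and Gm30240, on the opposite strand, reached at most 0.0618 TPM.

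Haptoglobin (Hp, gene ID 15439, chr8:109575128-109579172, minus strand) binds free haemoglobin and is also made by hepatocytes and neutrophils. Its values were 288, 449.9 and 538 TPM in PBS, 442, 416 and 555 in HEK-EV, and 221, 253.5 and 231.5 in MSC-EV. PBS replicate 1 lay nearest to the MSC-EV samples, which stood apart below it. The difference from PBS was -0.81 (SE 0.202), and Hp fell relative to HEK-EV (-0.99, SE 0.202, limma adjusted p = 0.0284).

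Cd177 (gene ID 68891, chr7:24743983-24760334, minus strand) encodes a GPI-anchored surface protein that pairs with PECAM1 and carries proteinase 3 on neutrophils. It was at 56.1, 75.1 and 78.2 TPM in PBS, 60.9, 60.7 and 77.7 in HEK-EV, and 33.4, 44.2 and 43.7 in MSC-EV. These were the closest PBS and HEK-EV means of the 8 genes, 69.8 ± 11.9 and 66.4 ± 9.77 TPM (SD, n = 3). In MSC-EV the mean was 40.4 ± 6.08, a difference of -0.77 (SE 0.156) from PBS. Relative to HEK-EV Cd177 fell by 0.71 on the log2 scale (SE 0.156, limma adjusted p = 0.0341).

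Plac8 (gene ID 231507, chr5:100551589-100572253, minus strand), a small cysteine-rich protein, was by far the most abundant of the 8 in every group. It was at 1459.7, 3589 and 3744 TPM in PBS, 2516, 2009 and 2158 in HEK-EV, and 1079, 1163 and 939 in MSC-EV. PBS replicate 1 lay far below the other PBS samples, 2.57-fold under the highest, and below all HEK-EV samples, while the MSC-EV samples were all lower than it. The difference from PBS was -1.35 (SE 0.306), and -1.79 without PBS replicate 1. Against HEK-EV the groups did not overlap, but the difference did not pass the threshold (-1.07, SE 0.306, limma adjusted p = 0.0725, 95% confidence interval -1.76 to -0.38). It passed in limma without PBS replicate 1, which enters that comparison only through the shared estimate of the spread (adjusted p = 0.0034), with only the 6 samples compared (0.00855) and with depth as a covariate (-1.51, adjusted p = 0.0046). Over all its alternatives the adjusted p was 0.0034 to 0.187.

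Guanine deaminase (Gda, gene ID 14544, chr19:21391307-21472661, minus strand) converts guanine to xanthine in purine breakdown. Its values were 119, 147 and 158 TPM in PBS, 174, 155 and 200.5 in HEK-EV, and 95.6, 95.9 and 98.4 in MSC-EV. The MSC-EV samples differed by 1.03-fold from lowest to highest, the tightest of the 8 genes. The difference from PBS was -0.53 (SE 0.115). Gda fell relative to HEK-EV (-0.85, SE 0.115, limma adjusted p = 0.0205), the smallest adjusted p of the 8 genes and equal to the smallest of any gene in that comparison.

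Relative to HEK-EV, 6 of the 8 genes fell past the threshold of an adjusted p under 0.05 (Vcan, Fn1, F13a1, Hp, Cd177 and Gda), where 4.4% of all genes tested were called lower and 1.51% higher (5.91% in all). In 7 of the 8 the groups did not overlap, against 17.5% of all genes that were lower without overlap. Their median difference was -0.92, beside -0.02 over all genes tested. This comparison shares its MSC-EV samples with the one against PBS. Those samples were part of the choice of the genes, so the counts against HEK-EV are a description, not independent support. Against PBS, 4 of the 8 were called lower, beside 3.25% of all genes (1.86% were called higher, 5.11% in all). All 8 were lower without overlap, beside 14.9%. Their median difference from PBS was -0.79, beside 0.01. Since that contrast was used in choosing the genes, nothing is read from these counts.

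The calls against HEK-EV depended on single samples. Without HEK-EV replicate 1 or 2, or MSC-EV replicate 1 or 2, 0 of the 8 genes passed in limma. At an unadjusted p under 0.05 these fits still gave 7 or 8 of the 8. Over all genes tested they called 0 to 1 gene, with 2369 to 2875 at an unadjusted p under 0.05. Without HEK-EV replicate 3 only Vcan of the 8 passed, with 31 of all genes tested. Without MSC-EV replicate 3 Vcan, Fn1 and Gda passed, with 621 of all genes tested. Without PBS replicates 1, 2 and 3 the count was 7, 5 and 6. Over all genes tested it was 1369, 636 and 790 there, beside 817 with all samples. The 8 differences from HEK-EV stayed below 0 in each of these fits, Vcan between -1.81 and -1.30.

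**Figure D2:**
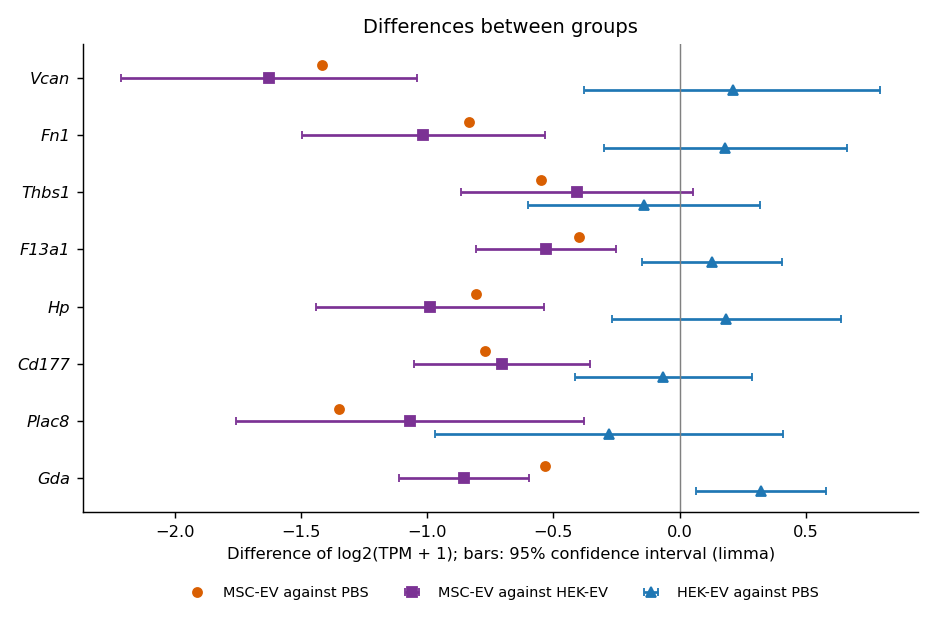
Differences of log2(TPM + 1) between groups for each gene (x axis) from limma, with 95% confidence intervals for the comparisons with HEK-EV samples in them and the value alone for MSC-EV against PBS. The intervals of MSC-EV against HEK-EV lie below 0 for all genes but Thbs1, and those of HEK-EV against PBS include 0 for all but Gda.

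The HEK-EV samples were not set apart from PBS by any of these genes. In HEK-EV against PBS 0 of the 8 passed in limma, as did 0.0% of all genes tested, with 1 of the 8 (Gda) and 495 of all genes at an unadjusted p under 0.05. No gene of the 8 had groups without overlap, which 2.29% of all genes had with HEK-EV lower and 5.51% with HEK-EV higher. The comparison shares its PBS samples with that of MSC-EV against PBS. Vcan, Fn1, F13a1, Hp and Gda had higher means in HEK-EV and Thbs1, Plac8 and Cd177 lower ones on the log2 scale, all with an adjusted p of 0.999. The signs are not stable: that of Thbs1 turned without PBS replicate 3 or HEK-EV replicate 2 and that of Cd177 without PBS replicate 3. Those of Vcan and F13a1 turned without HEK-EV replicate 3, and that of Hp without PBS replicate 1. The intervals show what remains possible. For Vcan the difference of 0.21 had a 95% confidence interval from -0.38 to 0.80. For Plac8 it was -0.28, with an interval from -0.97 to 0.41, and it ranged from -0.725 without PBS replicate 1 to -0.045 without PBS replicate 3. For Gda it was 0.32, with an interval from 0.06 to 0.58 and an unadjusted p of 0.0198 in limma, which fails the adjustment.

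Among the 8, the order of levels was nearly the same in each group. Plac8 was highest and Vcan lowest in all 3, and F13a1, Gda, Thbs1 and Cd177 followed one another in that order. Fn1 and Hp were not apart in any group, with means of 416 ± 40.6 and 425 ± 127 TPM (SD, n = 3) in PBS and 239 ± 69.7 and 235 ± 16.6 TPM in MSC-EV. Gda and Thbs1 overlapped in PBS only, and Cd177 and Vcan overlapped in PBS and HEK-EV but not in MSC-EV. The summed level of the 8 genes was 2715, 5096 and 5498 TPM in PBS, 4025, 3477 and 4203 in HEK-EV, and 1876.5, 2138.5 and 1939.7 in MSC-EV. Plac8 is the largest term of every sum, and the MSC-EV sums all lie below the other 6.

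Single samples moved all or most of the genes at once. PBS replicate 1 was the lowest PBS sample for 8 of the 8 genes, where it was lowest for 22.3% of all genes tested, and PBS replicate 3 was the highest for 8 of 8 (19.7% of all genes). PBS replicate 1 was also the lowest for 19 of 20 other Ly6C-high monocyte genes. It had the lowest ratio of coverage to FPKM of the 9 samples, 5.28 against 6.06 to 6.85, a ratio that rises with the number of fragments sequenced. The ratio given is the most frequent value over genes. Only 32.8 to 33.3% of the genes used lay close to it, so it is a rough stand-in for depth. The ratio ran with the groups: it was 6.58 to 6.85 in the MSC-EV samples, above every other sample (at most 6.47). With it as a covariate all 8 differences from PBS were farther from 0, among them those of Plac8 (-2.36), Hp (-1.44), Cd177 (-1.15) and Thbs1 (-0.87), and the part of depth in the levels cannot be told apart from that of the group by these samples. HEK-EV replicate 3 was the highest of its group for 7 of 8 genes, Plac8 being the exception, and for 42.4% of all genes. MSC-EV replicate 1 was the lowest of its group for 6 of 8, and for 32.8% of all genes.

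**Figure D3:**
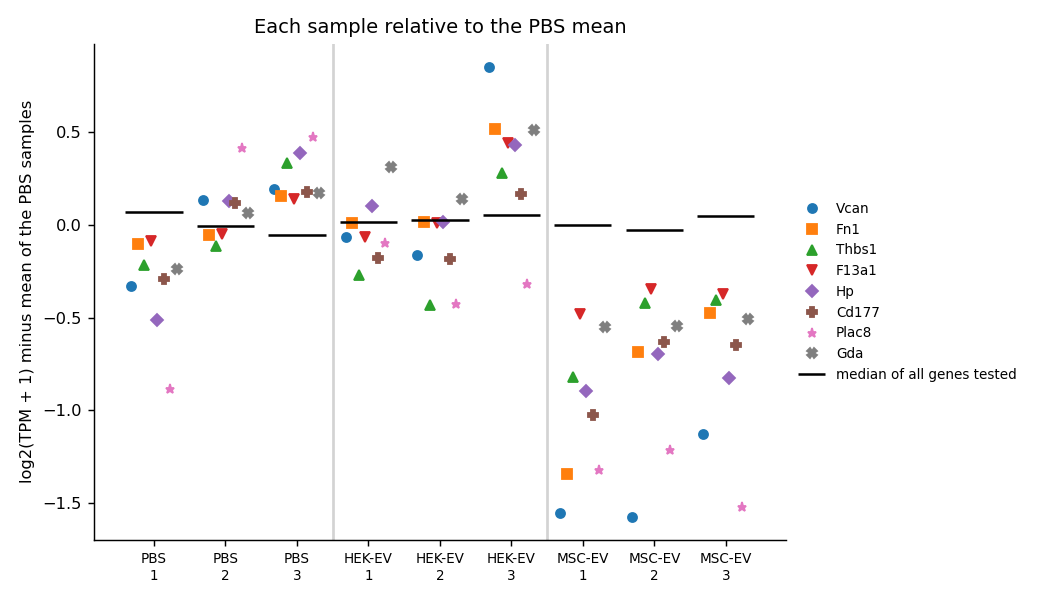
Level of each gene in each sample (group and replicate number on the x axis) as log2(TPM + 1) minus the mean of the 3 PBS samples (y axis), with 1 symbol per gene and a black bar for the median of all genes tested. The 8 genes lie between -1.58 and -0.35 in the MSC-EV samples, and between -0.89 and 0.85 in the other 6.

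Itgam and the leukocyte gene Ptprc were detected in every sample, with lower means in the MSC-EV group. Itgam, the gene of CD11b, averaged 330 ± 44.3 TPM (SD, n = 3) in PBS, 372 ± 54.1 in HEK-EV and 229 ± 29.6 in MSC-EV, and fell relative to HEK-EV (-0.70, SE 0.134, limma adjusted p = 0.0257) but not past the threshold relative to PBS (-0.53, adjusted p = 0.0553). Ptprc, which encodes CD45, fell relative to both, by 0.46 and 0.53 on the log2 scale (limma adjusted p = 0.0271 and 0.0207). The calls of both genes against HEK-EV were lost without any 1 of the HEK-EV samples or without MSC-EV replicate 1 or 2. That of Ptprc against PBS was lost without PBS replicate 2 or 3, without any 1 of the MSC-EV samples, without a filter, on FPKM, with only the 6 samples compared or with the acinar split. Their part in the levels of the 8 genes was not tested. Across the 9 samples Itgam was also the gene most like Fn1 (Pearson r 0.975 of log2(TPM + 1), among 9617 genes). Transcripts of pancreatic acinar cells were present in 4 samples, HEK-EV replicates 1 and 2 and MSC-EV replicates 1 and 3, with a median of 1.47 to 126 TPM over 15 such genes, and their median was 0 in the other 5. With that split as a term, the difference of Vcan from PBS was -1.17, that of Thbs1 went from -0.55 to -0.28 and that of F13a1 from -0.40 to -0.22, and the 4 calls relative to PBS went to 0 (6 of the 8 at an unadjusted p under 0.05 in limma). Over all genes tested the calls relative to PBS then went from 706 to 21. The split holds 2 samples of each vesicle group, so the differences from HEK-EV kept their size, with 6 of the 8 called lower. Of all genes tested 400 were then called lower than in HEK-EV, beside 608 without the term.

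Other genes of Ly6C-high monocytes were lower as well, though not all of them passed. Of 20 such genes, all tested, 8 fell relative to PBS (3.25% of all genes did) and 0 rose. Of the 20, 19 were below 0 (47.7% of all genes), and their median was -0.50. Relative to HEK-EV 5 fell (4.4% of all genes did) and 0 rose, with a median of -0.46. Chil3, a chitinase-like protein, fell from 4214 ± 1462 to 1554 ± 430.4 TPM (SD, n = 3; -1.40, limma adjusted p = 0.0353) and by 1.24 relative to HEK-EV. S100a4, a calcium-binding protein, fell from 2066 ± 444 to 1218 ± 204 TPM (-0.75, limma adjusted p = 0.035). Tgfbi, a secreted matrix protein, fell relative to HEK-EV, from 892 ± 85.3 to 529 ± 46.5 TPM (-0.75, limma adjusted p = 0.0237), and missed the threshold relative to PBS (-0.54, adjusted p = 0.0553). S100a6, of the same family as S100a4, fell from 675 ± 92.0 to 424 ± 43.5 TPM (-0.67, limma adjusted p = 0.0236). The interferon-inducible Ifitm6 fell from 445 ± 163 to 196 ± 15.5 TPM (-1.11, limma adjusted p = 0.0343), and Sirpb1c, a signal-regulatory protein of the β type, from 319 ± 59.0 to 194 ± 13.5 TPM (-0.70, limma adjusted p = 0.0251). Ly6c2, which gives these cells their name, averaged 986 ± 418, 801 ± 118 and 359 ± 21.9 TPM in PBS, HEK-EV and MSC-EV, and fell relative to PBS (-1.35, limma adjusted p = 0.0376) but missed the threshold relative to HEK-EV (-1.15, adjusted p = 0.0527). It has near-identical relatives, as do Chil3 and Sirpb1c. Ccr2, the chemokine receptor of these cells, was at 773 ± 63.9, 842 ± 199.7 and 629 ± 94.1 TPM (adjusted p = 0.307 against PBS in limma), and the lysozyme gene Lyz2 differed by -0.13 from PBS (adjusted p = 0.616). The count of 8 was 13 without PBS replicate 1. It was 0 without PBS replicate 2 or 3, without MSC-EV replicate 1 or 2 or with the acinar split as a term (13 to 15 at an unadjusted p under 0.05 in limma), and 2 and 3 without HEK-EV replicate 2 and MSC-EV replicate 3. It was also 0 without a filter on low values or with only the 6 samples compared, 3 on FPKM, 4 with median-of-ratios scaling and 14 with depth as a covariate. The count of 5 relative to HEK-EV was 13 and 8 without PBS replicates 1 and 3, was 2 and 3 without PBS replicate 2 and MSC-EV replicate 3, and was 0 without any 1 of the HEK-EV samples or without MSC-EV replicate 1 or 2 (14 or 15 at an unadjusted p under 0.05 in limma). It was 1 without a filter, 2 on FPKM or with median-of-ratios scaling, 3 with the acinar split, 12 with only the 6 samples compared and 13 with depth.

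Genes of Ly6C-low patrolling monocytes fell too. Of 10 genes, 8 fell relative to PBS (3.25% of all genes did) and 8 relative to HEK-EV (4.4%). Their medians were -0.83 and -0.85, and 0.04 in HEK-EV against PBS. The sialophorin gene Spn fell from 82.1 ± 13.6 to 40.0 ± 7.09 TPM (SD, n = 3; -1.02, limma adjusted p = 0.0153), and the receptor gene Treml4 from 244 ± 29.4 to 134 ± 24.4 TPM (-0.87, limma adjusted p = 0.0187). Nr4a1, the nuclear receptor these cells need, fell from 869 ± 159.6 to 497 ± 17.4 TPM (-0.79, limma adjusted p = 0.026). Cx3cr1 was not called (-0.04, adjusted p = 0.92), and the scavenger receptor Cd36 was higher without passing (0.83, adjusted p = 0.0674). The 8 calls relative to PBS went to 0 without PBS replicate 2 or 3, without MSC-EV replicate 1, with only the 6 samples compared or with the acinar split as a term (9 at an unadjusted p under 0.05 in limma each time), to 2 without MSC-EV replicate 2 and, as against HEK-EV, to 5 without a filter on low values. Those relative to HEK-EV went to 0 without any 1 of the HEK-EV samples or without MSC-EV replicate 1 or 2 (9 or 10 at an unadjusted p under 0.05).

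Receptors and modifiers of the matrix proteins were called in part. Of 16 genes 15 were tested, and 2 fell relative to PBS (3.25% of all genes did), with a median of -0.23 over the 15. Cd44, a receptor for hyaluronan and versican, averaged 371 ± 22.4, 417 ± 15.1 and 294 ± 18.0 TPM in PBS, HEK-EV and MSC-EV (SD, n = 3), a fall of 0.34 on the log2 scale relative to PBS (limma adjusted p = 0.0286). Itgb3, the β3 integrin chain, fell from 3.61 ± 0.183 to 2.07 ± 0.27 TPM (-0.59, limma adjusted p = 0.0251). Relative to HEK-EV 5 fell (4.4% of all genes did). These were Cd44 (-0.51), Itgb3 (-0.56), the fibronectin receptor chains Itga5 (-0.44) and Itgb1 (-0.31), and Tlr2 (-0.24), which versican can engage. Itgav and Lrp1 differed from PBS by 0.02 and 0.07 without passing. Of the 2 thrombospondin receptors listed, Cd36 is given above and Cd47 was -0.32 without passing (adjusted p = 0.068). The count of 5 was 0 without any 1 of the HEK-EV samples or without MSC-EV replicate 1 or 2 (7 to 9 at an unadjusted p under 0.05 in limma). It was 1 without a filter on low values or with a replicate block, 2 on FPKM or with the acinar split as a term, and 3 with median-of-ratios scaling or depth. The count of 2 was 0 without PBS replicate 2 or 3, without MSC-EV replicate 1 or 2, without a filter, with only the 6 samples compared or with the acinar split (6 to 9).

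Few clotting genes were called. Of 11 genes 10 were tested, F13b being below the filter. Relative to PBS 1 rose and 1 fell (1.86% and 3.25% of all genes did). Relative to HEK-EV 1 rose and 2 fell (1.51% and 4.4%). Nothing is read from so few calls about the list. Relative to PBS, coagulation factor VII (F7) rose from 26.2 ± 6.67 to 49.5 ± 7.58 TPM (SD, n = 3; 0.91, limma adjusted p = 0.026), and thrombomodulin (Thbd) fell from 45.4 ± 1.74 to 35.5 ± 2.12 TPM (-0.35, limma adjusted p = 0.035). Relative to HEK-EV F7 rose (0.94), and factor V (F5, -0.79) and the tissue transglutaminase Tgm2 (-0.40) fell. Tgm2 averaged 328.5 ± 16.9, 362 ± 26.2 and 274 ± 7.5 TPM, close to the level of F13a1 on the same per-length scale. The urokinase gene Plau and its receptor Plaur did not pass in either comparison. Of the clotting genes 0 passed relative to PBS without PBS replicate 2 or 3, without MSC-EV replicate 1 or 2, without a filter on low values, with only the 6 samples compared or with the acinar split as a term (6 to 8 at an unadjusted p under 0.05 in limma), and 1 rose and 3 fell without PBS replicate 1. Relative to HEK-EV 0 passed without any 1 of the HEK-EV samples or MSC-EV replicate 1 or 2 (4 to 7). Among 10 genes of haemoglobin and haem clearance, purine breakdown and CD177 partners, the β2 integrin Itgb2, which forms CD11b/CD18, fell from 821 ± 62.3 to 586 ± 49.7 TPM (-0.49, limma adjusted p = 0.0218). Haemopexin (Hpx), a haem carrier, rose relative to HEK-EV (1.02, limma adjusted p = 0.0341) and was 0.69 above PBS without passing (adjusted p = 0.103). The hepatocyte markers given below were also higher relative to HEK-EV (median 0.83), and their part in the level of Hpx was not tested. Xanthine dehydrogenase (Xdh), a later step of the pathway of Gda, was -0.44 from PBS without passing (adjusted p = 0.0617). Prtn3, the proteinase bound by CD177, was at 6.92 ± 3.67, 6.45 ± 2.91 and 2.87 ± 0.294 TPM. The calls of these 10 genes were lost without the same samples as those of the clotting genes, and that relative to PBS also with only the 6 samples compared or with the acinar split (4 to 7 at an unadjusted p under 0.05). Relative to PBS 1 of these 10 had fallen (3.25% of all genes did). This count was 4 without PBS replicate 1, and 2 with depth or without HEK-EV replicate 1 or 3.

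**Figure D4:**
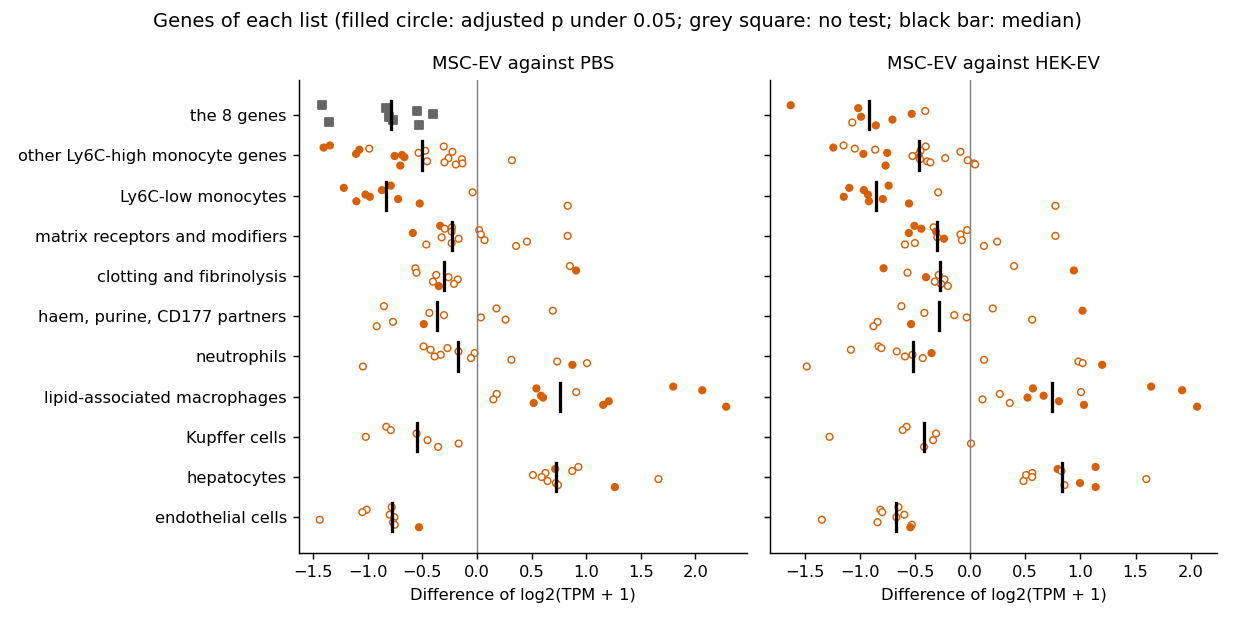
Difference of log2(TPM + 1) of each gene in the lists (x axis), MSC-EV against PBS on the left and against HEK-EV on the right, with filled circles for a limma adjusted p under 0.05, open circles for the rest, grey squares for values without a test and a black bar for the median. Relative to PBS the Ly6C-low monocyte list has 8 filled circles below 0, and the lipid-associated macrophage list 9 above 0. Of all genes tested, 3.25% were called lower and 1.86% higher in that comparison.

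Several of the 8 genes are also used by other cells, and the markers of those cells did not all follow them. Of all genes tested, 1.86% were called higher and 3.25% lower relative to PBS, and 1.51% and 4.4% relative to HEK-EV. For neutrophils, which express Cd177 and Hp, 13 of 15 markers were tested. Relative to PBS 1 rose (Ltf, 0.87, limma adjusted p = 0.0348) and 0 fell, with a median of -0.17. Relative to HEK-EV 1 rose (Ltf) and 1 fell (Csf3r), with a median of -0.52 and 11 of the 13 at an unadjusted p under 0.05 in limma. Of the 13, 9 were below 0 there (53.8% of all genes) and 4 above. The most abundant of them, S100a9 (-0.805) and S100a8 (-0.83), were lower without passing. Camp (0.98) and Ngp (1.02), with group means of at most 21.5 TPM, were higher without passing. The calls of Ltf and Csf3r were lost without HEK-EV replicate 1 or 2 or MSC-EV replicate 1 or 2 (10 at an unadjusted p under 0.05 each time). Of these markers 6 and 4 fell without PBS replicates 1 and 3, and 7 with depth as a covariate. Their summed level was 3340 to 6165 TPM in PBS, 5433 to 7668 in HEK-EV and 3316 to 4148 in MSC-EV. Ly6g was at 2.29 to 3.37 TPM in the group means, and Elane and Mpo were under 1 TPM in every sample. For hepatocytes, a source of Hp and Fn1 in the liver, 11 of 11 markers were above 0 relative to PBS, with 2 past the threshold (Apoa1 and Ambp). Their sum was 240.4 to 321.5 TPM in PBS, 170.4 to 364 in HEK-EV and 448 to 587 in MSC-EV. Platelets carry Thbs1, Fn1 and F13a1. Of the megakaryocyte and platelet markers, Gp1bb, Gp1ba, Gp9 and Gp6 were under 1 TPM in every sample, while Pf4 rose from 166.5 ± 31.1 to 295 ± 49.3 TPM (SD, n = 3; 0.83, limma adjusted p = 0.0348). The others tested, Ppbp (-0.22) and Treml1 (-0.045), did not pass, and the median of the 3 tested was -0.04. The calls of Ltf, Apoa1, Ambp and Pf4 relative to PBS were each lost without PBS replicate 2 or 3 or MSC-EV replicate 1. The 10 stellate cell and fibroblast markers summed to 35.9 TPM or less in every sample, and 0 of the 5 tested passed in limma, also at an unadjusted p under 0.05.

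Macrophage markers split. Of 12 markers of lipid-associated macrophages, 9 rose relative to PBS (1.86% of all genes did) and 8 relative to HEK-EV (1.51%), with medians of 0.76 and 0.74. Their sum was 12254 to 14412 TPM in PBS, 14412 to 15627 in HEK-EV and 23646 to 27117 in MSC-EV. Against PBS the count of 9 was 0 without PBS replicate 3 or MSC-EV replicate 1 (10 at an unadjusted p under 0.05 in limma) and 1 without PBS replicate 2 or MSC-EV replicate 2. It was also 0 with the acinar split as a term, and 1 without a filter on low values or with only the 6 samples compared. The 8 calls relative to HEK-EV went to 0 without a filter, without any 1 of the HEK-EV samples or without MSC-EV replicate 1 or 2 (9 to 11 at an unadjusted p under 0.05 in limma). All 7 Kupffer cell markers were below 0 relative to PBS (median -0.55), and 0 passed in limma, with 2 at an unadjusted p under 0.05. The 9 endothelial markers were all below 0 (median -0.78), with 9 of 9 at an unadjusted p under 0.05 in limma (3184 of all 13820 genes). Of them 1 was past the threshold (Fcgr2b, -0.53, limma adjusted p = 0.0171). Fcgr2b averaged 376 ± 32.4 TPM (SD, n = 3) in PBS, and each other endothelial marker 90.5 TPM or less without passing. Large peritoneal macrophage markers had 1 of 5 tested past the threshold (Icam2, -0.38, limma adjusted p = 0.0244), where 3.25% of all genes were called lower. These calls were lost without PBS replicate 2 or 3, without MSC-EV replicate 1 or 2 or with the acinar term. The part that shares of these cells play in the levels of the 8 genes was not tested.

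The genes whose pattern over the 9 samples was most like that of each gene are given as a description, since samples of 3 groups make up the points. For Vcan these were Pira2 (Pearson r 0.982), Rgs3 (0.980), Camk2d (0.979), Pira1 (0.977) and Ptpn1 (0.976). Pira1 and Pira2 have near-identical relatives. Rgs3 averaged 40.2 ± 5.88 TPM (SD, n = 3) in PBS, 41.6 ± 5.05 in HEK-EV and 26.5 ± 1.18 in MSC-EV. Plac8 was most like Ly6c1 (0.997), which has a near-identical relative in Ly6c2, at 89.0 ± 35.9, 67.6 ± 8.12 and 32.1 ± 2.999 TPM. Hp was most like Gsr (0.994), F13a1 like C5ar1 (0.976), Cd177 like AA414768 (0.994), Gda like Cd244a (0.990) and Thbs1 like Pkm (0.948).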

How the data were processed

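Bulk RNA of 9 samples was analysed, 3 per group. The library kit was TruSeq Stranded mRNA, per the labels' protocols. Reads were handled with HISAT2 2.1.0 and StringTie on mm10, per the submitters' processing notes, and the strand setting is not given in the sources used here. The deposited tables give TPM, FPKM and coverage (a mean read signal) per gene, per the file headers. TPM were made by the authors and sum to 1000000 in every sample. FPKM and coverage, also deposited, served only as an alternative and for the ratio of coverage to FPKM. Read depth is unknown, since the tables hold no counts, and counting error could not be computed. Gene IDs were matched to the RefSeq gene table of GRCm38.p6 (45679 of 45777 had a symbol), and entries of the same ID were summed. Coordinates are the files' own.

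The test was limma's (version 3.58.1, R 4.3.3, eBayes with a trend) on log2(TPM + 1), with all 9 samples in 1 fit and genes of at least 1 TPM in at least 3 samples. P-values are two-sided and were adjusted by Benjamini and Hochberg's method over 13820 genes, with a threshold of 0.05. The 8 genes, the gene lists and the rule for named genes were chosen with earlier results of these data known. That rule names the 8 genes, up to 4 members of each list of related genes with the smallest p past the threshold in MSC-EV against PBS and in MSC-EV against HEK-EV, defining markers of other cell types, and the genes of highest Pearson r (5 for Vcan, 1 for the others) among genes with a mean of at least 5 TPM. Ly6c2, Itgb1, list members given without passing the test, and the alternatives' values of single genes, were chosen after their values were seen. The alternatives were another pseudocount, other filters, FPKM, median-of-ratios scaling, fewer samples, a replicate block, and the acinar split (samples with a median above 0.3 TPM over 15 acinar genes) or depth as a term. Python 3.11.15 with pandas 2.3.3, numpy 2.4.6 and matplotlib 3.10.9 was used for tables and figures.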

Additional observations from a re-analysis of the deposited data

Results flagged for a closer look

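For 6 genes the effects of the MSC-derived and HEK-derived vesicles, both taken against the same PBS samples, differed past the threshold. The genes were chosen with the MSC-EV levels known, so these calls are a description. The difference of the effects is the comparison of MSC-EV with HEK-EV, tested with limma over all genes. It was -1.627 for Vcan, -1.015 for Fn1, -0.989 for Hp, -0.855 for Gda, -0.705 for Cd177 and -0.53 for F13a1 (log2). For each of them the 3 MSC-EV samples lay below the 3 HEK-EV samples. Of all genes tested, 4.4% were called lower and 17.5% were lower without overlap. Thbs1 and Plac8 did not pass this test. In limma 0 of the 8 genes passed it without HEK-EV replicate 1 or 2 or MSC-EV replicate 1 or 2 (7 or 8 at an unadjusted p under 0.05), and the MSC-EV samples were part of the choice of the genes.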

How the results depend on the processing

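The 8 genes stayed below 0 in MSC-EV against PBS and against HEK-EV under all 18 alternatives, with Vcan from -1.71 to -1.17 and from -1.81 to -1.30. Sizes moved by over 1.5 times against PBS for Plac8 (-2.36), Hp (-1.44) and Thbs1 (-0.87) with depth and for Thbs1 (-0.28) and F13a1 (-0.22) with the acinar split, and against HEK-EV for Thbs1 without HEK-EV replicate 3 (-0.20). Counts of calls moved far more. Against PBS, 706 genes passed, 4 of the 8 among them. The count was 361 without a filter, 77 with only the 6 samples compared, 21 with the acinar split, 1339 with depth, and 5 to 1861 leaving out 1 sample (5 and 7 without PBS replicates 2 and 3, 25 and 59 without MSC-EV replicates 1 and 2, 1861 without PBS replicate 1). Of the 8, 0 passed without a filter or with the acinar split, 2 on FPKM or with median-of-ratios scaling, 1 with only the 6 samples compared, and 0 to 5 leaving out 1 sample. Against HEK-EV 817 genes and 6 of the 8 passed. The counts were 387 and 2 without a filter, 436 and 3 on FPKM, 501 and 3 with median-of-ratios scaling, 1449 and 7 with depth, and 0 to 1369 and 0 to 7 leaving out 1 sample. In HEK-EV against PBS 0 genes passed, 4 without a filter and 0 to 2 leaving out 1 sample. Of the genes called, 36.4% were higher against PBS, and 58.7% on FPKM, 81.0% with the acinar split and 57.1% with depth. It was 25.6% against HEK-EV, and 54.8% on FPKM, 43.9% with median-of-ratios scaling and 41.7% with depth. The cause was not tested. In HEK-EV against PBS Thbs1 turned to 0.132 and Cd177 to 0.119 with the acinar split, and Hp to -0.171 with depth. Leaving out 1 sample gave -0.114 to 0.394 for Vcan, -0.352 to 0.025 for Thbs1, -0.027 to 0.227 for F13a1, -0.074 to 0.376 for Hp, -0.212 to 0.023 for Cd177, 0.013 to 0.266 for Fn1, 0.203 to 0.412 for Gda and -0.725 to -0.045 for Plac8 (-0.848 with depth). With a replicate block 404 genes and 5 of the 8 passed against PBS, and 448 genes and 6 of the 8 against HEK-EV, while in HEK-EV against PBS 0 passed. Deviations of same-numbered samples correlated at -0.499 to 0.058, and those of samples with unlike numbers at -0.277 to 0.547. With 3 samples per group this cannot decide whether the numbers mark pairs. With no counts, how far depth limits low values cannot be given.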
